A study of Danio rerio with 30 samples.

Results

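The pancreatic elastases are serine proteases made by the acinar cells of the exocrine pancreas and released into the gut. Zebrafish carry several of them, and the 8 described here are cela1.2, cela1.3, cela1.4, cela1.5, cela1.6, ela2, ela2l and ela3l, taken by symbol from a table of 31846 symbols with the reads of each gene's transcripts summed. They were read in RNA-seq libraries of whole AB wild-type zebrafish larvae at 120 hours post fertilization (hpf), a stage at which the yolk is nearly spent and feeding starts. The larvae were untreated (Control) or had been given methylparaben (labelled MtP), ethylparaben (EtP) or propylparaben (labelled PrP). These preservatives are esters of p-hydroxybenzoic acid with a methyl, an ethyl or a propyl group. Each compound came at 3 dose labels, BMD5, BMD5/10 and BMD5/50, which with Control made 10 groups of 3 libraries. What concentration each label stands for was not given in the sources used here. A comparison of compounds therefore matches their labels only. All groups share the strain, the age and the tissue (whole body). Total read counts ran from 9711814 to 24468093 per library. No label states that replicates came from separate clutches, so p-values measure only how these samples varied, and that variation may be technical.

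Acinar cells store the elastases as inactive precursors in zymogen granules, together with trypsinogen, chymotrypsinogen, carboxypeptidases, lipase and amylase. After release, enteropeptidase of the gut lining activates trypsin, and trypsin activates the other precursors. Elastases then cut proteins, and several elastases do so after small uncharged amino acids. In the blood and tissues proteins such as alpha-1-antitrypsin and alpha-2-macroglobulin hold proteases of this kind in check. In zebrafish larvae ela3l is widely used as a marker of exocrine pancreas, where the transcription factor Ptf1a drives acinar fate.

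The 8 symbols covered 16 transcripts of 9 gene IDs. The 5 cela1 genes, tandem duplicates of chymotrypsin-like elastase 1, lay together on the plus strand of chromosome 22. There cela1.6 (ENSDARG00000017314) took 7439186 to 7447391, followed by cela1.2 at 7472420 to 7476352, cela1.3 at 7480465 to 7483755, cela1.4 at 7486867 to 7492548 and cela1.5 (ENSDARG00000043168) at 7497319 to 7508894. The symbol cela1.5 was also given to ENSDARG00000077058, farther along the chromosome at 7742211 to 7754391, which the gene name reference lists as loc100334908. It held 15.2% of the reads counted as cela1.5. On chromosome 8 the elastase 2 pair stood on opposite strands, ela2l (ENSDARG00000056765) on the minus strand at 21366771 to 21372485 and ela2 (ENSDARG00000056744) on the plus strand at 21376290 to 21381734. The eighth gene, ela3l (ENSDARG00000007276), was on the minus strand of chromosome 5 at 26111596 to 26118855. Coordinates are those of the deposited table, whose genome build was not given in the sources used here.

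Of the 129496 reads of the family, cela1.6 had 61741, ela3l 31064, ela2l 26720 and ela2 8482. These 4 genes held 98.9% of the family's reads and between 96.2% and 100% in single libraries. The tandem copies other than cela1.6 were read far less, with 696 reads for cela1.5, 358 for cela1.4, 293 for cela1.3 and still fewer for cela1.2 over all 30 libraries. All 8 genes passed the filter on low counts. The cela1 copies are similar genes, and how reads matching more than 1 of them were assigned was not given in the sources used here. The division of reads among them is therefore uncertain. Most reads of cela1.6 (72.5%) were on its transcript 201 and 22.5% on transcript 204, which the table lists as a processed transcript without a coding sequence.

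Per unit of length the order was that of the reads except for cela1.3 and cela1.4, which changed places. In the authors' TPM (reads scaled for transcript length and library total), cela1.6 averaged 232 ± 290 (SD, n = 30 libraries) and was the highest of the family in 30 of 30 libraries. The next genes were ela3l at 84.9 ± 102.8 and ela2l at 77.3 ± 89. Their order was not fixed, ela3l being the higher in only 17 of 30 libraries. After them came ela2 at 25.9 ± 32.4, below ela2l in 30 of 30 libraries and above cela1.5 in 30 of 30. The low copies followed, with mean TPM of 1.91 ± 2.18 for cela1.5, 0.858 ± 1.07 for cela1.3, 0.675 ± 0.735 for cela1.4 and 0.447 ± 0.536 for cela1.2. Of these, cela1.3 was above cela1.4 in only 16 of 30 libraries. Among all 31846 symbols, cela1.6 ranked 392nd by mean TPM and cela1.2 ranked 17404th. The authors' RPKM put the 8 genes in the same order.

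**Figure D1:**
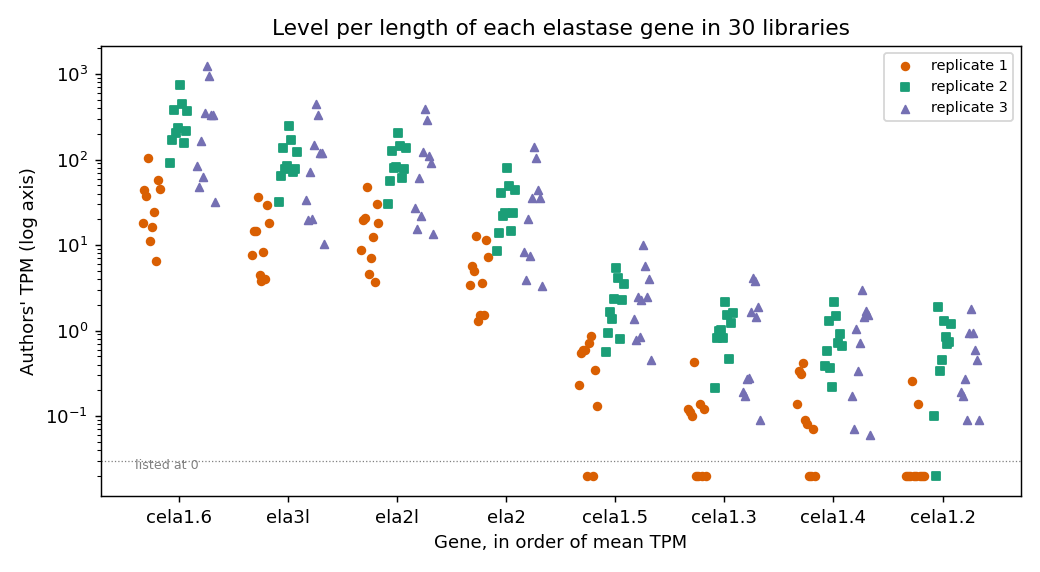
Authors' TPM (log axis) of each elastase gene in the 30 libraries, 1 point a library, shaped and coloured by replicate number; points below the dotted line are listed at 0. The 4 genes on the left, with means of 25.9 to 232, have no library at 0, and for each gene most of the low points are libraries numbered 1.

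Library by library, the summed level of the family varied 140-fold. As CPM (reads of a gene relative to the library's total, scaled by TMM), the sum of the 8 genes in replicates 1, 2 and 3 was 21.6, 114 and 109 in Control. With MtP it was 40, 188 and 58.1 at BMD5, 46.4, 428 and 196 at BMD5/10, and 111.9, 265 and 76 at BMD5/50. With EtP it was 12.7, 266 and 416 at BMD5, 14.6, 910 and 1481 at BMD5/10, and 27.8, 494 and 1108 at BMD5/50. The 3 ethylparaben groups thus hold the library with the highest sum and, next to PrP BMD5 replicate 1, some of the lowest. With PrP the sums were 10.6, 198 and 535 at BMD5, 72.3, 247 and 337 at BMD5/10, and 51, 426 and 39.7 at BMD5/50. The library numbered 1 was the lowest of its group in 8 of 10 groups and the highest in 0. In the other 2 groups, MtP BMD5/50 and PrP BMD5/50, replicate 3 was the lowest. Within groups, the pooled SD of the summed level was 2.21 on the log2 scale. In whole-larva RNA, fewer acinar cells and less elastase RNA per cell cannot be told apart, here and in all results that follow.

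**Figure D2:**
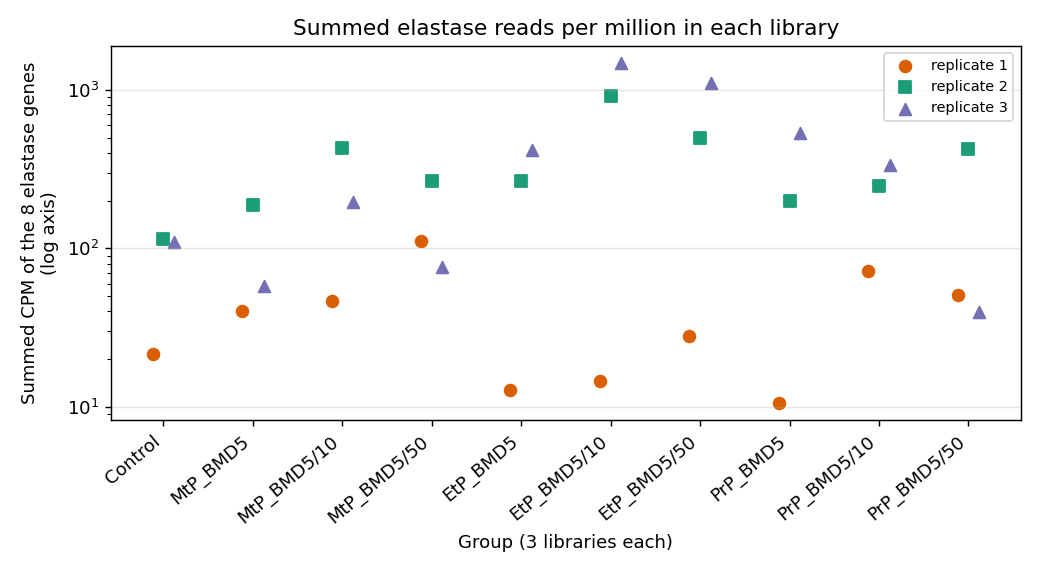
Summed CPM of the 8 elastase genes (log axis) in each of the 30 libraries, by group, with shape and colour for the replicate number. Libraries numbered 1 lie between 10.6 and 111.9, those numbered 2 between 114 and 910 and those numbered 3 between 39.7 and 1481, and the ranges of all 9 treated groups overlap that of Control.

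The first question was whether the exposures changed elastase RNA against untreated larvae. In none of the 9 comparisons did an elastase gene pass the test (edgeR, quasi-likelihood, Benjamini-Hochberg adjusted p under 0.05 over all genes): 0 of 8 members were called in each, beside 0% of the 18543 genes tested. DESeq2 also called 0 members and 0 genes in each. The estimate farthest from 0 was that of EtP BMD5/10, where 679 genes had an unadjusted p under 0.05 and all 8 elastase genes were among them.

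At that label cela1.6, the leading elastase 1 copy, read 6.53, 457 and 730 CPM in replicates 1 to 3, against 9.05, 54.1 and 48.3 in Control. Both exposed libraries numbered 2 and 3 were above every control library, and the exposed library numbered 1 was below all of them, so the groups overlap. The log2 fold change was 3.42 ± 1.51 (SE, n = 3 and 3; 95% interval 0.30 to 6.55), with an unadjusted edgeR p of 0.033 and an adjusted p of 0.999.

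For ela3l, the exocrine marker, the values were 2.44, 214 and 348 CPM with EtP BMD5/10 and 4.91, 27.4 and 29.6 CPM in Control, a log2 fold change of 3.19 ± 1.47 (edgeR adjusted p = 0.999). The elastase 2 genes had the same shape. The CPM of ela2l was 4.25, 168 and 291 with EtP BMD5/10 and 5.33, 24.8 and 22.7 in Control, and that of ela2 was 0.866, 61.7 and 96.9 against 1.96, 6.53 and 6.59. In each of these genes the exposed libraries numbered 2 and 3 stood above, and the one numbered 1 below, all 3 control libraries. Their log2 fold changes were 3.14 ± 1.36 for ela2l and 3.41 ± 1.36 for ela2 (edgeR adjusted p = 0.999 for both).

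The low cela1 copies gave log2 fold changes of 2.78 for cela1.5, 2.90 for cela1.4 and 3.58 for cela1.3 at this label (edgeR adjusted p = 0.999 for each). For cela1.3 there were only 5 reads in Control and 83 with EtP BMD5/10, with a 95% counting interval of the ratio of 5.73 to 44. In Control, cela1.2 had only 3 reads in all, against 40 in the EtP BMD5/10 group, a pooled ratio of 11.2 with a 95% counting interval of 3.56 to 56.5, which covers counting error only. The median over the 8 genes was 3.21 on the log2 scale, beside 0.004 over all genes tested. It lay between 2.51, without EtP BMD5/10 replicate 3, and 3.76, without replicate 1 of that group, when each library was left out in turn, and no member was called in any of these fits.

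Set against the control of the same replicate number, the family sum of EtP BMD5/10 was 0.678-fold in replicate 1, 7.97-fold in replicate 2 and 13.6-fold in replicate 3. At the other EtP labels it was 0.586, 2.33 and 3.82-fold at BMD5 and 1.29, 4.33 and 10.2-fold at BMD5/50. Replicates 2 and 3 were thus above their controls at each label, and replicate 1 was below its control except at BMD5/50. Deviations from group means were correlated across genes between EtP and Control libraries numbered 2. This gave -0.0698, 0.0134 and -0.138 at BMD5, BMD5/10 and BMD5/50, so the match by number is weak for replicate 2. With all 10 libraries numbered 1 left out, 2 members were called in EtP BMD5/10 against Control, ela2 with a log2 fold change of 3.59 ± 0.875 and an adjusted p of 0.0451 and cela1.5 with 2.80 ± 0.67 and an adjusted p of 0.0417 (edgeR), beside 2.08% of all genes tested there. The other 6 members had adjusted p of 0.05 to 0.132 in that fit. It holds 2 libraries a group. The libraries numbered 1 were left out with earlier results known, which had set them apart. In EtP BMD5/10 the library left out was the one below its control, so these calls are not a separate test of the difference.

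In the remaining groups the median log2 fold change of the 8 genes against Control was 2.65 for EtP BMD5/50, 1.51 for EtP BMD5, 1.70, 1.51 and 1.15 for PrP at BMD5, BMD5/10 and BMD5/50, and 0.21, 1.47 and 0.91 for MtP in the same order. All 9 comparisons use the same 3 control libraries, of which the one numbered 1 is the lowest. At EtP BMD5/50, cela1.3 and ela2 had unadjusted p of 0.0347 and 0.0441 (edgeR), where 527 of all genes were under 0.05, and no member reached 0.05 at the other 7 groups. Single libraries moved most of these medians. The PrP BMD5/50 value rests on 1 library, since without its replicate 2 the median was -0.94. Without replicate 2 of the treated group it was -0.60 for MtP BMD5 and 0.64 for MtP BMD5/10, and without replicate 3 it was 1.69 for EtP BMD5/50, 0.79 for EtP BMD5, 0.40 for PrP BMD5 and 0.99 for PrP BMD5/10. For MtP BMD5/50 it was 0.41 without Control replicate 1.

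**Figure D3:**
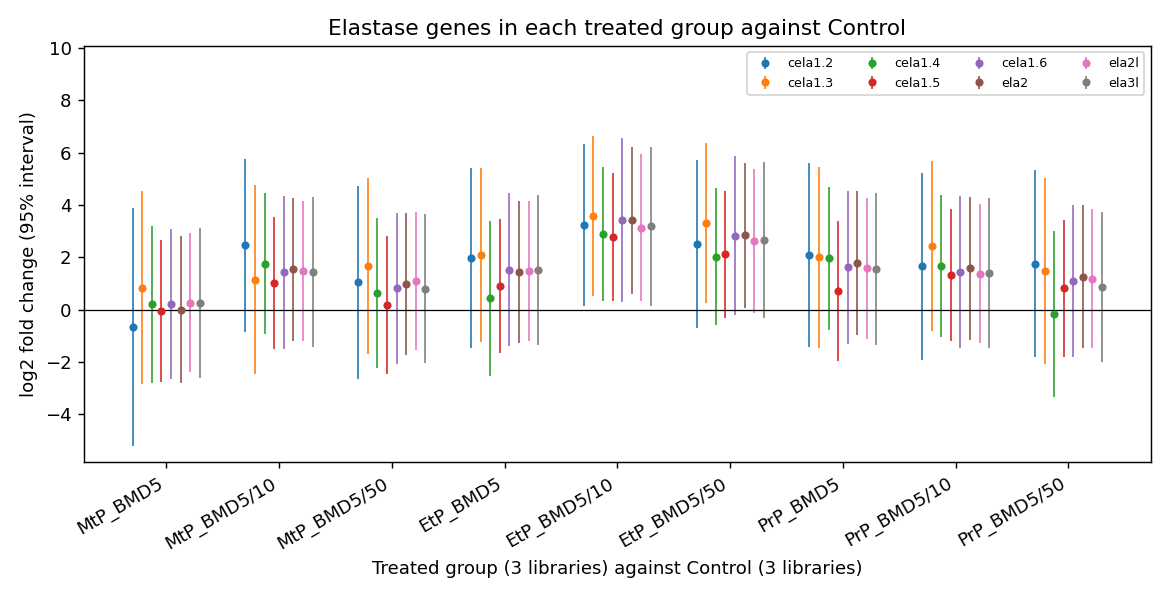
Log2 fold change of each elastase gene in each treated group against Control, from edgeR with 3 libraries a group, with 95% intervals. At EtP BMD5/10 all 8 intervals lie above 0 before adjustment, and in the 8 other groups all but those of cela1.3 and ela2 at EtP BMD5/50 cross 0.

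The authors' deposited table, which calls a transcript at an unadjusted p under 0.05 and a log2 fold change of 1 or more in either direction, marks 10 of the 16 elastase transcripts at EtP BMD5/10, beside 1.3% of all transcripts. They belong to all members but cela1.2. In the authors' deposited table the transcript of ela2 has a log2 fold change of 3.42 there with p = 0.0157, and the main transcript of cela1.6 one of 3.53 with p = 0.0167. The authors' deposited table also marks 6 elastase transcripts at EtP BMD5/50 (1.34% of all), 4 at PrP BMD5/10 (0.693%) and 1, that of ela2, at MtP BMD5/10 (0.783%). For the other 5 groups the authors' deposited table marks 0 of 16, beside 0.583% to 0.969% of all transcripts. The lowest q-value that the authors' deposited table gives to any elastase transcript is 0.781.

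Next, the compounds were set against each other at the same label. In these 9 comparisons edgeR called 0 of 8 elastase genes and 0% of all genes in each, and 0 elastase genes had an unadjusted p under 0.05. DESeq2 also called 0 elastase genes. The median log2 difference of EtP from MtP over the family was 1.26 at BMD5, 1.75 at BMD5/10 and 1.75 at BMD5/50. It fell to 0.58, 0.95 and 0.87 without replicate 3 of the EtP group and rose to 2.21, 2.65 and 2.39 without replicate 2 of the MtP group. For cela1.6 at BMD5/10, where MtP larvae read 18.6, 198 and 83.6 CPM, the difference was 2.0, and the ranges of the compounds overlap. For PrP minus MtP the medians were 1.35 at BMD5, -0.02 at BMD5/10 and 0.18 at BMD5/50. With each library left out in turn they ran from 0.12 (without PrP replicate 3) to 2.37 (without MtP replicate 2) at BMD5, from -0.51 (without MtP replicate 1) to 0.84 (without MtP replicate 2) at BMD5/10, and from -1.79 (without PrP replicate 2) to 0.83 (without MtP replicate 2) at BMD5/50. For PrP minus EtP they were 0.08, -1.67 and -1.65 at the 3 labels. These ran from -1.16 (without PrP replicate 3) to 0.83 (without EtP replicate 3) at BMD5, from -2.22 (without EtP replicate 1) to -0.95 (without EtP replicate 3) at BMD5/10, and from -3.59 (without PrP replicate 2) to -0.64 (without EtP replicate 3) at BMD5/50. The sign of the PrP values near 0 thus changed with the library left out. The intervals are wide, and a p that misses the threshold does not show that the compounds act alike.

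Taking the mean of the 3 labels of a compound, a comparison added after seeing the data, the elastases of EtP larvae were 0.92 (cela1.4) to 1.78 (cela1.3) above those of MtP larvae on the log2 scale. No member was called (lowest adjusted p = 0.24, edgeR), beside 0.00539% of all genes (1 gene, tasor2), and cela1.3, cela1.5, cela1.6 and ela2 had an unadjusted p under 0.05, as had 3136 of all 18543 genes. Without the libraries numbered 1 this difference was called for 6 of 8 members, beside 19.7% of all genes. These were cela1.3 (1.88), cela1.5 (1.68), cela1.6 (1.96), ela2 (1.97), ela2l (1.72) and ela3l (1.80), with edgeR adjusted p of 0.00806 to 0.0231. The libraries left out were those that earlier results had set apart, so these calls are not a separate test of the difference. With the replicate number as a block, cela1.5 was called (log2 difference 1.29 ± 0.388, edgeR adjusted p = 0.031), beside 13.4% of all genes. In the 5 other comparisons of such means, 0 members were called (edgeR), beside 0% of all genes, with unadjusted p of 0.0389 for cela1.3 and 0.045 for ela2 in EtP against Control, where 800 of all genes were under 0.05, and none under 0.05 elsewhere. Between the highest and the lowest label of 1 compound, 0 members and 0% of all genes were called in each of 3 comparisons by edgeR, 0 members by DESeq2 and 0 at an unadjusted p under 0.05, with family medians of -0.72 for MtP, -1.21 for EtP and 0.51 for PrP (BMD5 minus BMD5/50). These ran from -1.59 (without BMD5 replicate 2) to -0.13 (without BMD5/50 replicate 2) for MtP, from -1.99 (without BMD5 replicate 3) to -0.19 (without BMD5/50 replicate 3) for EtP, and from -0.79 (without BMD5 replicate 3) to 2.50 (without BMD5/50 replicate 2) for PrP.

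The family was called in full when libraries were compared by replicate number, which the titles give. The labels do not say what the number marks. This comparison was made because earlier results of these data had already set the libraries numbered 1 apart. Its calls are therefore not a separate test of that difference. Across the 10 groups cela1.6 ran from 4.56 to 47.6 CPM in the libraries numbered 1 (median 14), from 54.1 to 457 in those numbered 2 (median 119) and from 18.1 to 730 in those numbered 3 (median 121.7). Every library numbered 2 was thus above every one numbered 1. For ela3l the medians were 7.13, 65 and 69.2 CPM for numbers 1, 2 and 3, for ela2l 9.47, 62.1 and 53.1 CPM, and for ela2 2.58, 16.3 and 17.9 CPM. Libraries numbered 1 had less of these 4 genes than both others of their group in 8, 8, 8 and 7 of 10 groups, in the order cela1.6, ela3l, ela2l and ela2.

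In a fit with the group as a term, all 8 members were lower in replicate 1 than in the mean of replicates 2 and 3, beside 29% of all genes lower and 56.4% called in either direction. The log2 difference was -3.01 ± 0.529 (SE, n = 10 libraries a number) for cela1.6, -2.94 ± 0.514 for ela3l, -2.56 ± 0.489 for ela2l and -2.54 ± 0.508 for ela2, with edgeR adjusted p of 4.2e-05 to 0.000183. For the low copies it was -2.80 for cela1.5, -2.52 for cela1.4, -3.33 for cela1.3 and -3.54 for cela1.2, with adjusted p of up to 0.000272 in edgeR. In libraries numbered 1 the median was 0.0632 CPM for cela1.3 and 0 for cela1.2, so the sizes of these differences are uncertain. The p-values of this fit treat the 10 libraries of a number as separate replicates. If libraries of the same number share a clutch, day or batch, the p-values do not measure the spread between such units. The median of -2.87 stands beside 0.026 over all genes. Replicate 2 against replicate 3 gave 0 of 8 members called (edgeR), with 0 at an unadjusted p under 0.05, a median of -0.06, and 0.0863% of all genes called.

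The gap of the libraries numbered 1 was not of 1 size. On the family sum, the geometric mean of replicates 2 and 3 was divided by replicate 1. The ratio was 79.3 at EtP BMD5/10, 26.6 at EtP BMD5/50, 26.2 at EtP BMD5 and 30.8 at PrP BMD5. In Control the ratio was 5.16, at PrP BMD5/10 and BMD5/50 it was 3.99 and 2.55, and with MtP it was 2.62, 6.25 and 1.27 at BMD5, BMD5/10 and BMD5/50. A fit with a term for replicate 1 in each compound, added after seeing the data, put numbers on this.

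Within EtP all 8 members were lower in replicate 1 (edgeR), beside 25% of all genes lower and 46.8% called. In the 3 EtP libraries numbered 1, cela1.2, cela1.3 and cela1.4 had only 1, 1 and 2 reads. In the other 6 they had 79, 188 and 192, so the sizes of their differences are uncertain. The log2 difference there was -5.40 for cela1.6, -5.62 for ela3l, -4.92 for ela2l and -5.34 for ela2. Within PrP all 8 were called too, beside 22.1% lower and 41.1% called, with -2.92, -2.62, -2.56 and -2.28 for the same 4 genes. With the BMD5 groups left out, only 4 elastases were called within PrP. Here cela1.2 had 0 reads in the 3 libraries numbered 1 and 31 in the other 6. Taking 3 reads over the 3 libraries as the floor, it was 5.44-fold higher in numbers 2 and 3. The lower counting limit of the ratio was 4.17, so the value at the floor is not a lower bound. With the value at the floor in place of the fitted value the PrP median was -2.77 instead of -3.47. Within MtP 0 members were called, beside 28.1% of all genes, with -1.69 for cela1.6 and -1.74 for ela3l and edgeR adjusted p of 0.0705 and 0.0525. In MtP 3 of the 8 members had an unadjusted p under 0.05, as had 7473 of all 18543 genes, so the members' share is near that of all genes. Within Control, which has 1 library numbered 1, 0 members were called, beside 0.21%, and 0 had an unadjusted p under 0.05. Its values were -2.50 for cela1.6 and -2.54 for ela3l.

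The difference between the gaps was itself tested, in the same fit. That fit was chosen after the ratios of these libraries had been seen, so its calls are not a separate test. It takes the 3 label groups of a compound as replicates of that compound. The gap was larger in EtP than in MtP for 5 members, the EtP minus MtP value being -3.98 for cela1.4, -3.72 for cela1.6, -4.04 for ela2, -3.70 for ela2l and -3.88 for ela3l on the log2 scale, with edgeR adjusted p of 0.0178 to 0.039, beside 5.03% of all genes with a more negative value in EtP and 9.29% called. In the 3 EtP libraries numbered 1, cela1.4 had only 2 reads, against 192 in the other 6, so the size of its value is uncertain. The 3 members not called had values of -2.06 to -3.95. With the groups of 1 label left out, 1 member or none of them was called. In the other differences between gaps edgeR called 0 members: EtP minus Control (3.75% of all genes), EtP minus PrP (5.24%), PrP minus MtP (0.458%), PrP minus Control (0.458%) and MtP minus Control (0%). At an unadjusted p under 0.05 they had 4 of 8 members in EtP minus PrP, beside 3957 of all 18543 genes, 2 in PrP minus MtP, beside 2815, and 0 in the other 3.

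**Figure D4:**
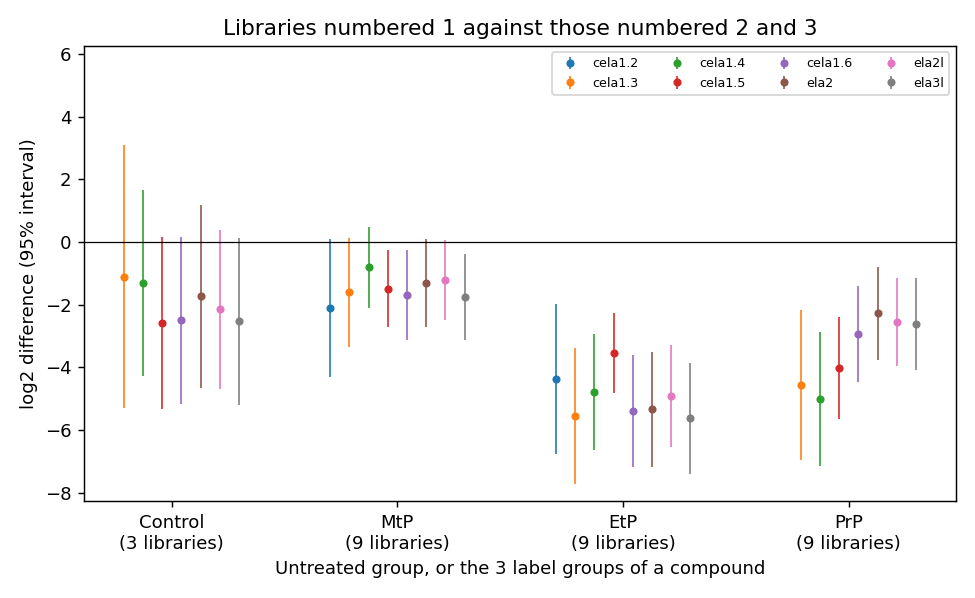
Log2 difference of each elastase gene between libraries numbered 1 and those numbered 2 and 3, within Control and within the 3 groups of each compound, with 95% intervals from edgeR; cela1.2 is left out in Control and PrP, where number 1 had 0 reads. The 8 intervals of EtP lie between -7.73 and -1.97, and the estimates in MtP run from -2.11 to -0.81. The lowest MtP estimate thus lies inside the range of the EtP intervals.

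Shares within the family were compared across the same libraries. The share of cela1.6 in the family's reads lay between 39.1% and 50.3% over the 30 libraries (median 45.2%), that of ela3l between 16.7% and 27.8%, that of ela2l between 18.4% and 29.8% and that of ela2 between 4.81% and 9.1%. The order of ela2l and ela3l was less fixed. Reads of ela2l per read of ela3l had a median of 1.16 (0.867 to 1.74) in libraries numbered 1, where 6 of 10 were above 1, of 0.884 (0.784 to 1.06) in those numbered 2 and of 0.828 (0.733 to 1.21) in those numbered 3. These ranges overlap, and no test was made.

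The other digestive enzymes of the acinar cell were described from lists chosen with earlier results known. In EtP BMD5/10 against Control no listed gene was called. The median log2 fold change was 3.14 for 8 genes of the trypsin and chymotrypsin list, of which 6 were above 0 and 2 below. The 2 below, named after their values were seen, were prss60.3 (-0.91) and tmprss15 (-0.32), the enteropeptidase gene. Enteropeptidase belongs to the gut lining, so this list is not of acinar enzymes alone. The median was 2.82 for 4 carboxypeptidases and 3.27 for 4 lipase and amylase genes, all 8 above 0, and 0.44 for 8 zymogen granule and acinar secretory genes, of which 5 were above 0 and 3 below. In replicate 1 against the mean of 2 and 3, 7 of 8 genes of the trypsin and chymotrypsin list were lower, beside 29% of all genes. Among them prss1, a trypsin, was at -3.06 and ctrb1, a chymotrypsin, at -3.27 (edgeR adjusted p = 7.5e-06 and 3.6e-05). All 4 carboxypeptidases (median -2.50) and all 4 lipase and amylase genes (median -3.07) were lower too, among them amy2a, the pancreatic amylase, at -3.05 (adjusted p = 2.3e-06, edgeR). Of 8 zymogen granule and acinar secretory genes, 6 were lower. In that list sycn.2, a syncollin of the granule membrane, was at -2.87, while xbp1, a regulator of the secretory machinery in many cell types, was at 0.11 (edgeR adjusted p = 0.135).

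A list of pancreatic transcription factors, not all of them particular to acinar cells, had 11 genes tested. Of these, 7 were lower and 2 higher in replicate 1 (edgeR), with a median of -0.51. Over all genes 29% were lower and 56.4% were called in either direction. The summed level of the listed factors ran from 38 to 53.8 CPM in libraries numbered 1 and from 49.9 to 70 in those numbered 2. That sum was led by sox9b, with a mean of 30 CPM, followed by foxa2 (6.51), hnf1ba (4.81) and mnx1 (3.24). The listed factors rbpjl, bhlha15 and gata4 were not tested. What part of these RNAs came from acinar cells in whole larvae was not tested. The plasma protease inhibitors, which the liver makes, were lower in 11 of 11 (median -2.31), with serpina1, the alpha-1-antitrypsin gene, at -2.65 and a2ml, an alpha-2-macroglobulin-like gene, at -2.31 (edgeR adjusted p = 1.7e-06 and 6.9e-07). Of 9 genes listed for elastic fibres and their assembly, led in CPM by the crosslinking enzyme genes loxl1 and loxl2b, 7 were lower (median -0.92). Of the elastin genes listed, elnb was tested and elna was not.

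Markers of other tissues also moved with the replicate number, in a comparison that called 56.4% of all genes, 29% of them all as lower. All 16 liver genes (median -2.38), all 13 intestinal genes (median -1.69) and all 8 skeletal muscle genes (median -0.90) were lower in replicate 1, 5 of 6 neutrophil genes were lower (median -0.83), and all 8 neuronal genes were higher (median 0.30). Of 13 endocrine pancreas genes, 6 were higher and 2 lower, so the share called is near that of all genes. In mean CPM that list was led by neurod1 (304.3), pax6b (73.6), sst1.1 (15.5) and nkx2.2a (13.4). What part of these RNAs came from the endocrine pancreas in whole larvae was not tested. Summed liver markers ran from 110.8 to 325 CPM in libraries numbered 1, from 330 to 2913 in those numbered 2 and from 424 to 2743 in those numbered 3. For the intestine the ranges were 212 to 380, 517 to 2421 and 493 to 1754 CPM, and for neurons 2249 to 2440, 1793 to 2104 and 1769 to 2229 CPM. In EtP BMD5/10 against Control the liver list had a median log2 fold change of 2.16 and the intestinal list one of 2.02, with 0 genes of either called. The part of these tissues in the elastase results was not tested.

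**Figure D5:**
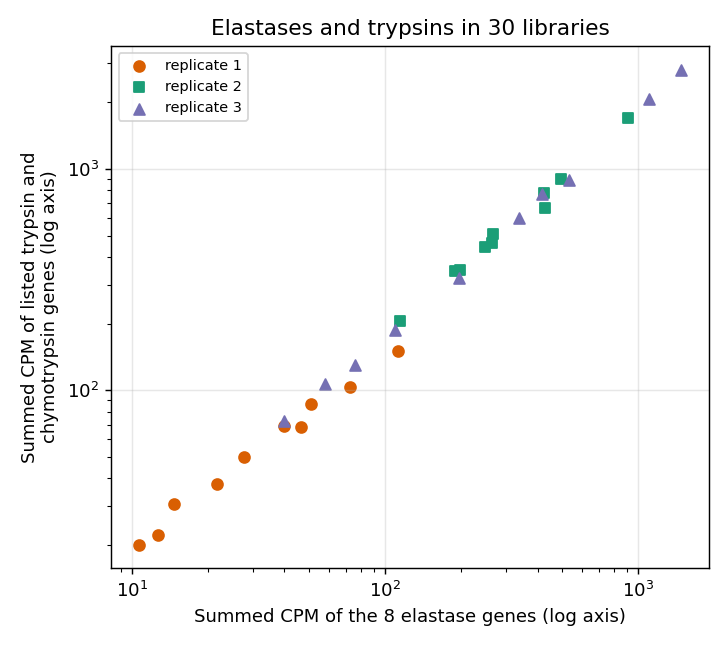
Summed CPM of the 8 elastase genes (horizontal, log axis) against summed CPM of the listed trypsin and chymotrypsin genes (vertical, log axis) in the 30 libraries, with shape and colour for the replicate number. The points lie close to 1 line from 10.6 and 20.1 CPM to 1481 and 2807 CPM.

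The genes whose pattern was most like the family's were enzyme genes of the same cell type for the most part. Likeness was the mean of 3 Pearson correlations, each over the 10 groups within 1 replicate number, between log2 CPM of a gene and log2 of the family sum. It was 0.994 for prss1, 0.993 for ctrl, a chymotrypsin-like gene, 0.991 for the trypsin gene prss59.2, 0.987 for ctrb1, 0.986 for zgc:112160, 0.975 for the carboxypeptidase gene cpb1, 0.972 for c6ast4, an astacin-like metalloprotease gene, and 0.968 for prss59.1. Over the 18535 other genes the median was -0.00128. With rank correlation 7 of the 8 names stayed. Among the members it was 0.999 for cela1.6, which makes up much of the sum, 0.995 for ela2l, 0.993 for ela3l and 0.99 for ela2, and 0.719 (cela1.4) to 0.867 (cela1.3) for the low copies. Each library's depth and scaling enter both values of a point, members' own reads are part of the sum, and these correlations are a description.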

How the data were processed

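Whole AB zebrafish larvae at 120 hpf gave 30 libraries of total RNA, grouped and numbered by their titles; the columns named PP were matched to the PrP titles. Per the file headers, the deposited table gives read counts, RPKM and TPM for each transcript in each library. Per the file headers it also gives the authors' log2 fold change, p-value and q-value of each treated group against Control. The aligner, the read counter, the build of the genome and the statistical test of the authors were not given in the sources used here. The counts were used as deposited and summed per symbol (59876 transcripts, 31846 symbols, 29201 of 32520 gene IDs matched to the name reference), and no 2 libraries held identical counts.

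Tests used edgeR 4.0.16 (quasi-likelihood, R 4.3.3) in 1 fit of 10 group means over 30 libraries, with TMM scaling and filterByExpr at a minimum count of 10, which left 18543 genes. P-values were adjusted within each comparison by Benjamini-Hochberg at 0.05, and intervals are 95%. A fitted fold change weighs libraries with many reads of a gene more. An exact permutation test of 3 against 3 cannot go below 0.1 and was not used. The edgeR script was run on simulated counts that held no effect of the replicate number. That run does not show how the tests behave where such an effect is present. Alternatives were RLE scaling, DESeq2 1.42.0, no filter, limma 3.58.1 on log2 of the authors' TPM plus 1, the replicate number as a block, the 2 groups alone, each library left out and all libraries numbered 1 left out. Means over the 3 labels and the gap of replicate 1 by compound were added after seeing the data.

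All 8 members are named; other listed genes appear as counts with up to 4 examples of highest mean CPM, and the 8 genes of most similar pattern are named. Members and lists were chosen with earlier results of these data known. To see whether replicate numbers pair libraries, deviations from group means were correlated across genes between same-numbered libraries: in 14 of 21 comparisons all 3 correlations were over 0.1, and in the other 7, among them EtP BMD5/10 against Control, at least 1 was not. Libraries of different numbers were not correlated for comparison, so these correlations cannot show that libraries pair by number. The pairing rests on the numbers in the titles.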

Additional observations from a re-analysis of the deposited data

Results flagged for a closer look

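The test of the difference between compounds in the gap of the libraries numbered 1 passed for 5 elastase genes (edgeR, adjusted p of 0.0178 to 0.039). The log2 difference of replicate 1 from replicates 2 and 3 was more negative in EtP than in MtP larvae by the following amounts: the value was -3.98 for cela1.4, -3.72 for cela1.6, -4.04 for ela2, -3.70 for ela2l and -3.88 for ela3l. It rests on 3 libraries numbered 1 in each compound, which come from different label groups. With the BMD5 groups left out 1 member was called, and with the BMD5/10 or the BMD5/50 groups left out 0 were called. The sign stayed negative in these fits for each of the 5. The fit was added after seeing the gaps in the same libraries, so it is not a separate test of the difference. The part of other tissues in the difference was not tested.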

How the results depend on the processing

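In the 21 comparisons of groups no elastase gene was called under RLE scaling, DESeq2, no filter, limma on TPM, the 2 groups alone, the replicate block or any of the fits without 1 library (6 a comparison). The exception was the fit without all libraries numbered 1, with 2 elastase genes and 393 genes called in EtP BMD5/10 against Control. The libraries left out there were those that earlier results had set apart, and 2 libraries a group remained. That fit called 68 genes in EtP BMD5 and 120 in EtP BMD5/50 against Control, and 63 at BMD5 and 482 at BMD5/10 in EtP against MtP. For means of 3 labels it called 582 genes in EtP against Control, 3714 (6 elastases) in EtP against MtP, 94 in PrP against MtP and 277 in PrP against EtP.

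With the replicate block, which pairs libraries by number, 1 gene (slc25a48, log2 difference 1.05, adjusted p = 0.00407) was called in EtP against MtP at BMD5/10, 2479 genes (1 elastase) in the mean of EtP against that of MtP and 10 in PrP against MtP. Otherwise it changed no call, and the family median of EtP BMD5/10 against Control was 2.80 under it.

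All 8 members stayed lower in replicate 1 under RLE scaling, no filter, DESeq2 and treated groups alone. DESeq2 called 93 genes, none of them an elastase, in replicate 2 against 3, where edgeR called 16. RLE scaling changed no call of an elastase gene in the gaps by compound. Leaving out the groups of 1 label did. Within MtP, 1919 genes were called without BMD5 and 1909 without BMD5/50, with 2 elastases in the latter. Within PrP, 4268 were called without BMD5/10 and 4310 without BMD5/50. Without BMD5, 4 elastases were called within PrP, where the main fit called all 8 beside 41.1% of all genes. Within Control, 21 genes were called without BMD5/50. For EtP minus MtP the counts were 682, 247 and 498 genes and 1, 0 and 0 elastases without BMD5, BMD5/10 and BMD5/50. For EtP minus PrP they were 262, 86 and 58 genes, for PrP minus MtP 154, 0 and 6, and for PrP minus Control 403, 12 and 38. For EtP minus Control they were 226 without BMD5/10 and 328 without BMD5/50. These fits hold fewer libraries.

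The biological coefficient of variation was 0.979 to 1.19 for the members, against a median of 0.195 over all genes. The low read totals of cela1.2 to cela1.5 add counting error to their values.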
